A study of Mus musculus with 12 samples.

Results

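The comparison described here is that of gastrocnemius, a calf muscle made mostly of fast fibres, between mice homozygous for Mars2 R135W and wild type mice. All libraries labelled as gastrocnemius were taken, 6 of the 12 in the series, and all genes were tested within muscle. The WT group holds animals 6, 8 and 9 (genotype wt, aged 9.0, 9.0 and 7.4 weeks) and the R135W group animals 5, 7 and 12 (genotype R135W/R135W, aged 9.0, 7.4 and 8.6 weeks). All 6 were female C57BL/6N mice on chow with no treatment listed, and the other 6 libraries of the series are the livers of the same animals. The labels name whole tissue, so the counts pool fibres with vessels, connective tissue and resident immune cells, and fewer cells of a type cannot be told apart from less RNA per cell. The labels give no litter, day or time of tissue collection.

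Mars2 encodes the mitochondrial methionyl-tRNA synthetase, which loads methionine onto the tRNA used by mitochondrial ribosomes, so mitochondrial protein synthesis depends on it. Faults in this process are known to set off the integrated stress response in muscle, and nucleic acid that leaks from mitochondria is known to be read by cytosolic sensors that induce type I interferon. Interferon acts through a receptor on the cell surface, transcription factors that include STAT2 and IRF9, and a promoter motif, the interferon-stimulated response element, to switch on antiviral genes and antigen presentation. The series title asks whether the type I interferon response is active in these mice.

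Libraries held 23895670 to 28669346 counts, with TMM factors of 0.949 to 1.02, and 13826 genes passed the count filter. Pairs of libraries of a genotype differed by more than counting error, with chi-squared per degree of freedom of 8.07 to 17.8. The first principal component of the log2 CPM values, with 31.5% of the variance, put the 3 WT libraries on one side and the 3 R135W libraries on the other. Muscle fibre markers fit the label: Acta1, skeletal actin, stood at 23030 to 32060 CPM. CPM, the count scaled to library size, was taken with TMM-scaled sizes, and log2 fold changes are R135W against WT, positive where R135W is higher.

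Mars2 itself (chr1:55237177-55240058, mm10) stood at 12.6, 10.7 and 11.9 CPM in WT animals 6, 8 and 9 and at 10.5, 9.28 and 8.59 CPM in R135W animals 5, 7 and 12. The R135W libraries were all slightly below the WT libraries. Its log2 fold change of -0.31 (SE 0.11) did not pass edgeR's test across all genes, at an adjusted p of 0.295. A missense allele need not change its transcript level, so this value does not check the genotype labels, and the variant base cannot be read from counts per gene. Of the 61 tested genes within 5 Mb of Mars2, 0 passed edgeR's test and 12 had an unadjusted p under 0.05. Over all tested genes that unadjusted count was 1595 of 13826 (11.5%), a lower share.

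In R135W muscle, interferon-stimulated and MHC class I genes rose together with the vascular genes Kdr and Pdgfb and the insulin receptor substrate gene Irs1, while Foxo1, the glucocorticoid-induced Fkbp5 and Glul, and the lipid droplet gene Plin4 fell. By edgeR's quasi-likelihood test at an adjusted p under 0.05, 121 of 13826 genes passed, 0.875%. Of these, 75 were higher (0.542% of tested genes) and 46 lower (0.333%). The median absolute log2 fold change of the 121 was 0.73, with a range of 0.31 to 3.64, and 23 were at least 2-fold higher and 11 at least 2-fold lower. At an unadjusted p under 0.05 stood 1595 genes, 11.5%. In all 121 the R135W libraries lay entirely on one side of the WT libraries, as they did for 2301 genes or 16.6% of all tested. The number depended on single libraries: 38 genes passed without WT 6, 3 without WT 8, 9 without WT 9, 106 without R135W 5, 21 without R135W 7 and 47 without R135W 12. All 121 kept their direction and an unadjusted p under 0.05 in each of these 6 fits. Foxo1 and Tfcp2l1 passed in all 6, Irf7, Kdr, Pdgfb, Irs1 and Cep85l in the 5 that kept WT 8, Ifit3, Dusp7 and Dusp10 in 4, and 26 genes in 0. A fit of all 12 libraries, which shares its estimate of spread with liver, called 20 genes in muscle, all among the 121.

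**Figure D1:**
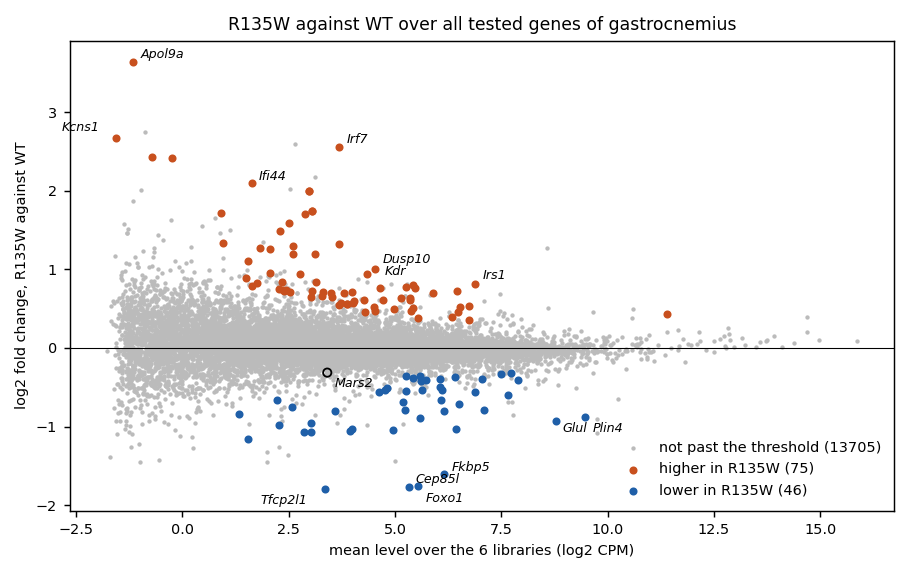
Log2 fold change of R135W against WT for the 13826 genes tested in gastrocnemius, by mean level over the 6 libraries in log2 CPM; orange points are the 75 genes past the threshold and higher in R135W, blue points the 46 lower, and the open circle is Mars2. Apol9a lies highest at 3.64, and Tfcp2l1, Cep85l and Foxo1 lie lowest, between -1.80 and -1.76.

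Interferon-stimulated genes rose. Of 56 tested members of the list, 22 passed the test, all higher, beside 0.542% of all tested genes called higher. All 56 of 56 fold changes were positive. The list's median log2 fold change was 0.77, beside -0.0002 over all tested genes. An unadjusted p under 0.05 was reached by 45 members, beside 11.5% of all tested genes. Libraries of the genotypes did not overlap for 42 of the 56, beside 16.6% of all tested genes. The series title names this response and the list was written with earlier results known, so its direction is not independent evidence. Without WT 8, 0 members passed in edgeR (41 had an unadjusted p under 0.05), and without WT 6, WT 9, R135W 7 and R135W 12 there were 2, 3, 1 and 6; without R135W 5, 31 passed. The list's median stayed between 0.63 and 0.93 in these 6 fits.

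The called member with the smallest p was Irf7, the transcription factor that amplifies interferon production (chr7:141263183-141266424). Irf7 stood at 3.13, 3.09 and 5.02 CPM in WT 6, 8 and 9 and at 14.3, 25.8 and 26.2 CPM in R135W 5, 7 and 12. Every R135W library was thus above every WT library, with R135W 5 the lowest of its group. The log2 fold change was 2.56 (SE 0.26, adjusted p = 0.00918), a 5.9-fold difference of means. Stat2, a transcription factor of the receptor's signal, rose from 8.59 ± 1.05 to 14.0 ± 1.87 CPM (SD, n = 3), at 0.70 (SE 0.13). Irf9, which binds DNA together with STAT2, stood at 0.56 (SE 0.12, adjusted p = 0.0786) and did not pass, with no overlap between genotypes. Stat2 and Irf9, like the sensors and receptor in the next paragraph, were named after their values were seen.

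Sensors of cytosolic nucleic acid were low in muscle. Ifih1, the sensor MDA5 of long double-stranded RNA, rose from 4.43, 4.29 and 4.37 CPM in WT to 6.12, 8.17 and 7.22 CPM in R135W, at 0.72 (SE 0.13, adjusted p = 0.043), and did not pass in limma-voom. Ddx58, the sensor RIG-I, stood at 0.65 (SE 0.14, adjusted p = 0.0913), and Zbp1, which detects left-handed double helices, had a change of 1.62 (SE 0.43, adjusted p = 0.16) from 0.408 CPM in WT. Tmem173, which encodes STING, stood at 0.56 (SE 0.17, adjusted p = 0.232), and Mb21d1, the DNA sensor cGAS, at -0.21 (SE 0.36) from under 1 CPM in each library. The receptor subunit gene Ifnar1 stood at 0.01 (SE 0.09).

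Among the antiviral effectors, Ifit3, whose product binds foreign RNA, stood at 2.52, 3.62 and 4.18 CPM in WT 6, 8 and 9 and at 8.32, 13.9 and 11.6 CPM in R135W 5, 7 and 12. The genotypes were apart, with WT 6 and R135W 5 the lowest of their groups, and the log2 fold change was 1.71 (SE 0.22, adjusted p = 0.0184). Oas2, an oligoadenylate synthetase that switches on RNase L, stood at 2.64, 2.41 and 3.50 CPM in WT and at 6.49, 10.6 and 8.66 CPM in R135W, a change of 1.59 (SE 0.20, adjusted p = 0.0184). Again R135W 5 was the lowest R135W library and still above all WT libraries. Ifi44, an interferon-induced cytoplasmic protein gene, rose from 1.18 ± 0.319 to 5.02 ± 1.53 CPM (SD, n = 3), at 2.09 (SE 0.27). Oasl2, an oligoadenylate synthetase-like gene, rose from 2.60 ± 0.705 to 7.24 ± 1.71 CPM, at 1.48 (SE 0.23). Apol9b rose by 2.42 (SE 0.37) and Pydc3, an interferon-inducible gene of the Ifi200 family, by 2.43 (SE 0.42), both from under 0.4 CPM in each WT library; Pydc3 did not pass in limma-voom. Scaled by exon length, the levels stayed low in R135W, at 1.73 RPKM for Ifi44 and 5.65 RPKM for Ifit3 beside 85.8 RPKM for B2m.

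The interferon-stimulated response element is the site that STAT2 and IRF9 act through, and promoters of called members of the list that hold its core are printed to show where it lies. Promoters of 300 bases (250 before to 50 after the gene's start, RefSeq, GRCm38.p6) were searched on both strands for GAAANNGAA. Of the 22 called members 19 had a promoter in the table. Of the 19, 10 held the core (52.6%), beside 8.56% of all 32851 promoters, which include those of genes not tested in muscle. The list was made of genes known to respond to interferon, so a high share is no evidence about R135W. Of all 56 tested members 43 had a promoter, under 80%, which makes a comparison with them void. Of those 43, 22 held the core (51.2%), and no conclusion about the called members is drawn from that share. The same count over all genes called higher or lower is void too, because only 55 of 75 and 36 of 46 had a promoter. The stretches below belong to the 6 called members with the smallest p among the 10. Capitals mark the core on either strand; cores that start with TTC lie on the opposite strand, and overlapping cores run together.
Ifit3: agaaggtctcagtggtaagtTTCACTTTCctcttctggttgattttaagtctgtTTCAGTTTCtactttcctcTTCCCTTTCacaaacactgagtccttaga
Ifi44: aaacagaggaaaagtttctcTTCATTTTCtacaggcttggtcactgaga
Apol9b: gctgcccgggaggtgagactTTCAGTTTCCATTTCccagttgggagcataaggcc
Apol9a: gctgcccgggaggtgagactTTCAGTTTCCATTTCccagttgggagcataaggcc
Gbp3: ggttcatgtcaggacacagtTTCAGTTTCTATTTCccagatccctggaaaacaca
Bst2: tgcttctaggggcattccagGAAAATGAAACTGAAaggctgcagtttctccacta

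These stretches lie at chr19:34583354-34583455 (+ strand) for Ifit3, chr3:151749885-151749933 (- strand) for Ifi44, chr15:77729016-77729070 (+ strand) for Apol9b, chr15:77411104-77411158 (- strand) for Apol9a, chr3:142559980-142560034 (+ strand) for Gbp3 and chr8:71537568-71537622 (- strand) for Bst2. Ifit3 holds 3 separate cores between 155 and 94 bases before its start, and Apol9b, Apol9a, Gbp3 and Bst2 each hold a pair of overlapping cores. Apol9a and Apol9b are close relatives on chromosome 15 with the same printed stretch. It lies before both gene starts, so it does not show whether reads of one were placed on the other. The likeness of their transcripts was not measured, so their separate values are uncertain. Gbp3, a guanylate-binding GTPase, rose by 1.20 (SE 0.19) and Bst2, the tetherin that holds virus particles at the membrane, by 1.32 (SE 0.22). Bst2 did not pass in limma-voom. A match of letters is no measure of binding.

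MHC class I genes, which carry peptides to the cell surface, rose with the interferon-stimulated genes. Of 19 tested members 9 passed, all higher, with a list median of 0.66 and 18 positive; without each of WT 6, WT 8, WT 9, R135W 7 and R135W 12 none passed in edgeR (12, 13, 13, 12 and 12 had an unadjusted p under 0.05), and 11 passed without R135W 5. B2m, the light chain shared by all class I molecules (chr2:122147687-122153082), stood at 40.7, 47.8 and 47.6 CPM in WT 6, 8 and 9 and at 57.1, 83.8 and 79.8 CPM in R135W 5, 7 and 12. R135W 5 was again the lowest of the R135W libraries, above every WT library. The change of B2m was 0.70 (SE 0.13, adjusted p = 0.0489). The heavy chain gene H2-K1 rose from 66.1 ± 9.20 to 109 ± 18.8 CPM (SD, n = 3), at 0.73 (SE 0.13), and the non-classical H2-Q4 from 13.8 ± 2.22 to 26.5 ± 5.20 CPM, at 0.94 (SE 0.16). Psmb9, an immunoproteasome subunit that trims peptides for class I, rose from 1.97 ± 0.102 to 3.65 ± 0.618 CPM. B2m, H2-K1 and Psmb9 passed with adjusted p values of 0.0438 to 0.0489 and did not pass in limma-voom; they were named after their values were seen.

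The largest folds of the class I region were in the Qa genes and are not separate measurements. H2-Q6 and H2-Q8 have identical counts, as do H2-Q7 and H2-Q9, because a fragment was counted for every gene it overlaps and 97% to 100% of their exon lengths are shared. The first pair rose by 1.99 (SE 0.30) and the second by 1.74 (SE 0.30, not past the threshold in limma-voom), and H2-Q5, which shares no exon in the annotation but has close relatives, by 1.72 (SE 0.30). H2-T22 rose by 0.56 (SE 0.08) with counts identical to those of H2-T9. MHC class II genes, restricted to antigen-presenting cells, had 0 of 7 past the test in edgeR, DESeq2 and limma-voom, 0 with an unadjusted p under 0.05, and a median of 0.12. Of 7 tested NF-kB and inflammatory cytokine genes 0 passed in the 3 tools and 3 had an unadjusted p under 0.05, around a median of 0.32; Tnfaip3, an NF-kB feedback inhibitor, stood at 0.68 (SE 0.21, adjusted p = 0.227).

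Immune cell markers were low in all 6 muscles. The 12 tested macrophage markers had a median of 0.02 and summed to 75.0 to 93.3 CPM across WT and 78.7 to 97.8 CPM across R135W libraries, and 0 passed in the 3 tools or reached an unadjusted p under 0.05. The 4 tested monocyte and dendritic cell markers summed to 4.56 to 7.65 CPM across WT and 5.0 to 7.10 CPM across R135W libraries. Of the T and NK cell list only Cd3e was tested, of the neutrophil list only Mmp9 and of the B and plasma cell list only Mzb1; the other 9, 5 and 5 members in the files were below the count filter, and these 3 genes stood at 0.29 to 1.59 CPM. The groups overlapped for each of these lists. The part of immune cells in the rise of the interferon-stimulated genes was not tested, and most lymphocyte and neutrophil markers were too low to test. Of the 15 marker lists, the endothelial one alone had sums that did not overlap between genotypes, higher in R135W. Of the 10 endothelial markers taken singly, 7 did not overlap between genotypes, beside 16.6% of all tested genes. An unadjusted p under 0.05 was reached by 8 of the 10, beside 11.5% of all tested genes. How often sums of other genes separate the genotypes was not tested, so 1 such list of 15 is not shown to be unusual. The part of the endothelial sum in the interferon-stimulated and other called genes was not tested.

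**Figure D2:**
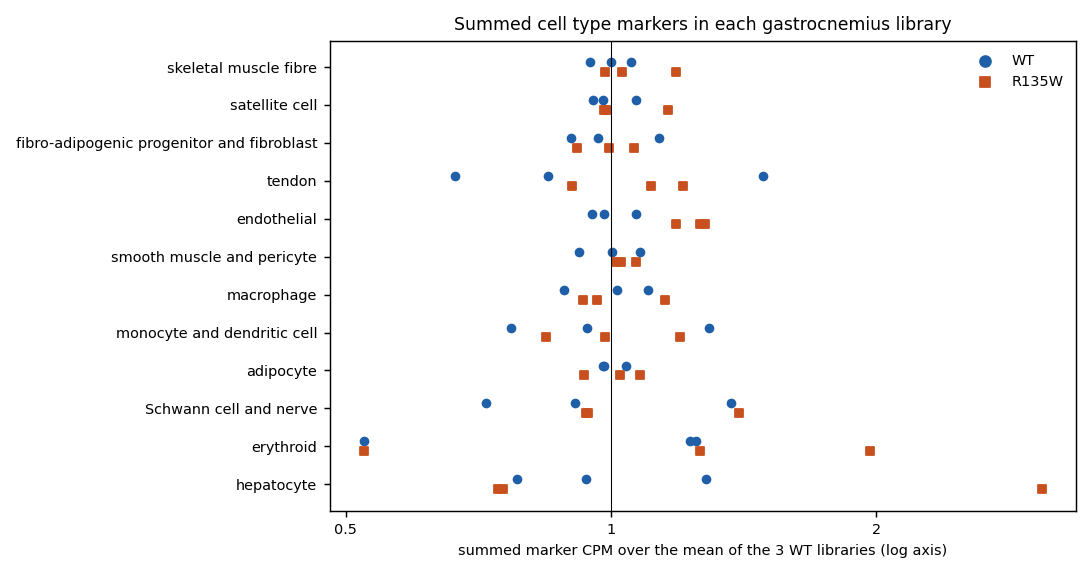
Summed CPM of the tested markers of 12 cell types in each gastrocnemius library, divided by the mean of the 3 WT libraries, on a log axis; circles are WT and squares R135W. The endothelial sums of the genotypes do not overlap (332 to 373 CPM in WT, 414 to 446 CPM in R135W), while those of macrophages do, and R135W 12 is highest for hepatocyte markers.

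Some vascular genes rose in R135W. Of 23 tested growth factors and receptors of vessels 3 passed, all higher: Kdr, Pdgfb and Nrp1. Their list median was 0.18, with 16 positive and 10 at an unadjusted p under 0.05, and 0 passed without WT 8 (9 unadjusted). Kdr, the main receptor for VEGF on endothelial cells (chr5:75933270-75978428), stood at 30.3, 27.3 and 27.1 CPM in WT 6, 8 and 9 and at 51.8, 44.1 and 48.6 CPM in R135W 5, 7 and 12. The spread within each genotype was small beside the gap between them, and the change was 0.77 (SE 0.08, adjusted p = 0.00918). Pdgfb, the ligand by which endothelium recruits pericytes (chr15:79995876-80014808), stood at 20.3, 21.6 and 20.8 CPM in WT and at 31.2, 32.0 and 32.4 CPM in R135W. Each genotype lay within about 1 CPM of its mean, and the change was 0.61 (SE 0.06, adjusted p = 0.00918).

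Nrp1, a co-receptor for VEGF, rose from 40.4 ± 2.76 to 52.4 ± 2.67 CPM (SD, n = 3), at 0.38 (SE 0.07, adjusted p = 0.0491), and did not pass in limma-voom. Vegfa, the ligand, stood at -0.08 (SE 0.07) and Flt1, its decoy receptor, at -0.17 (SE 0.08, adjusted p = 0.459). Apln, a peptide of sprouting endothelium, stood at 0.92 (SE 0.24, adjusted p = 0.154), with no overlap between genotypes. The defining endothelial markers moved the same way: all 10 were positive, with a median of 0.29, 8 at an unadjusted p under 0.05 and Kdr alone past the adjusted threshold in edgeR and limma-voom (3 in DESeq2). Pecam1 stood at 0.27 (SE 0.06, adjusted p = 0.115), Tek at 0.36 (SE 0.08, adjusted p = 0.101) and Cdh5 at 0.35 (SE 0.10, adjusted p = 0.194). The endothelial sum, which includes Kdr itself, ran from 332 to 373 CPM in WT and from 414 to 446 CPM in R135W. The part of this sum in the rise of the vascular genes was not tested. Vegfa, Flt1, Pecam1, Tek and Cdh5 were named after their values were seen.

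Foxo1 fell with the smallest p of all tested genes. It encodes a forkhead factor that insulin holds out of the nucleus and that switches muscle to fat oxidation and protein breakdown (chr3:52268337-52350109). Foxo1 stood at 68.4, 85.9 and 62.3 CPM in WT 6, 8 and 9 and at 19.3, 18.3 and 26.4 CPM in R135W 5, 7 and 12. The highest R135W library, R135W 12, was far below the lowest WT library, WT 9, and the change was -1.76 (SE 0.15, adjusted p = 0.00586). Foxo3, its relative, stood at -0.48 (SE 0.12, adjusted p = 0.16), Foxo4 at -0.08 (SE 0.07) and Foxo6 at 0.59 (SE 0.18, adjusted p = 0.227), and none of them passed.

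Of 24 tested atrophy and FOXO target genes 2 passed, Foxo1 and Bnip3, both lower, with 20 negative and a median of -0.19. Bnip3, a mitophagy receptor, stood at 242, 236 and 226 CPM in WT and at 184, 195 and 187 CPM in R135W, a small change of -0.31 (SE 0.06, adjusted p = 0.043) between tight groups, which did not pass with age as a covariate. The ubiquitin ligase genes of muscle breakdown did not pass: Fbxo32 stood at -0.40 (SE 0.22) and Trim63 at -0.46 (SE 0.21, adjusted p = 0.456), with overlapping libraries. Pdk4, the kinase that shuts off pyruvate oxidation in fasting, stood at 1703, 821 and 976 CPM in WT and at 269, 562 and 818 CPM in R135W. The groups nearly met at WT 8 and R135W 12, and Pdk4 did not pass, at -1.08 (SE 0.37, adjusted p = 0.287). Without R135W 12, 4 members of the list passed and 16 had an unadjusted p under 0.05, against 6 with it; without each of the other 5 libraries 1 passed. Foxo3, Foxo4, Foxo6, Fbxo32, Trim63 and Pdk4 were named after their values were seen.

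Of the insulin and IGF signalling genes, Irs1 rose and Pik3r1 fell, of 22 tested, and the list median was -0.0008. Without WT 8 neither passed in edgeR (4 members unadjusted), and without WT 6, WT 9, R135W 5 or R135W 12 Irs1 alone did. Irs1, the docking protein that passes the insulin receptor's signal on (chr1:82233105-82291439), stood at 89.4, 78.2 and 90.6 CPM in WT 6, 8 and 9 and at 166, 152 and 135.1 CPM in R135W 5, 7 and 12. All R135W libraries were well above WT, and the change was 0.81 (SE 0.09, adjusted p = 0.0102). Pik3r1, the regulatory subunit of PI3 kinase (chr13:101680761-101768217), stood at 100, 76.2 and 93.4 CPM in WT and at 49.2, 60.6 and 44.4 CPM in R135W. The genotypes did not overlap, and the change was -0.81 (SE 0.13, adjusted p = 0.0289). Insr, the receptor, stood at -0.11 (SE 0.07), Irs2 at 0.05 (SE 0.28) and Akt2 at 0.01 (SE 0.09); these 3 were named after their values were seen.

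**Figure D3:**
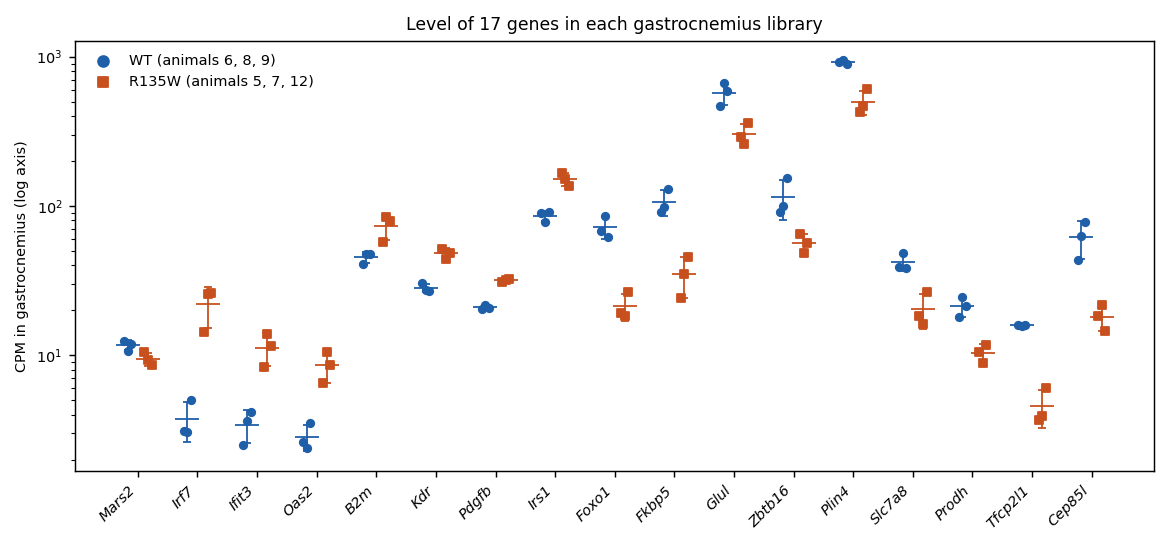
CPM of 17 genes in each gastrocnemius library on a log axis, with points for libraries (circles WT, squares R135W) and bars for the mean ± SD of 3. Every gene shown has all R135W libraries on one side of all WT libraries, among them Irf7 (3.09 to 5.02 CPM in WT, 14.3 to 26.2 CPM in R135W) and Foxo1 (62.3 to 85.9 CPM in WT, 18.3 to 26.4 CPM in R135W).

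Some glucocorticoid-induced genes fell. Glucocorticoids, released from the adrenal gland with a daily rhythm and in stress, act in muscle through a nuclear receptor. Of 25 tested members 3 passed, all lower, namely Fkbp5, Glul and Zbtb16, and 20 were negative with a median of -0.20. Fkbp5, a chaperone partner that damps the glucocorticoid receptor and is induced by it (chr17:28398753-28486149), stood at 91.1, 99.1 and 131 CPM in WT 6, 8 and 9 and at 24.2, 35.1 and 45.9 CPM in R135W 5, 7 and 12. Even the highest R135W library was far below the lowest WT library, and the change was -1.61 (SE 0.21, adjusted p = 0.0184).

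Glul, glutamine synthetase (chr1:153899929-153909723), stood at 470, 664 and 586 CPM in WT and at 288, 260 and 357 CPM in R135W, a change of -0.93 (SE 0.14, adjusted p = 0.0289). No library of one genotype reached the other. A microRNA annotation, Mir8114, lies almost wholly within Glul and was also called, at -0.89 (SE 0.12); its counts are those of Glul fragments and cannot be told apart from them. Zbtb16, a zinc finger factor induced by glucocorticoids, fell from 115 ± 34.5 to 56.6 ± 8.46 CPM (SD, n = 3), at -1.03 (SE 0.19), with WT 9 the highest at 155 CPM.

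R135W 12 stood apart from R135W 5 and 7 in several members that did not pass. Mt2, a metallothionein, stood at 14.97, 10.9 and 10.5 CPM in WT, 2.37 and 4.14 CPM in R135W 5 and 7 and 32.6 CPM in R135W 12. Tsc22d3, the leucine zipper GILZ, stood at 238, 353 and 338 CPM in WT, 182 and 165 CPM in R135W 5 and 7 and 308 CPM in R135W 12. Per1 followed the same pattern, at 80.8 and 71.0 CPM in R135W 5 and 7 and 150 CPM in R135W 12, beside 92.2 to 132 CPM in WT. Without R135W 12 the list's median was -0.63, with 5 of 24 members past the test and 20 at an unadjusted p under 0.05, against 6 of 25 with it. Without WT 8, WT 9 or R135W 7 none passed in edgeR (6, 6 and 5 unadjusted), and without R135W 5 the count was 1. The time of collection is not in the labels, and its part in these values was not tested. Of 19 circadian clock genes 0 passed in the 3 tools and 7 had an unadjusted p under 0.05, around a median of -0.12. Without WT 6, 1 was called lower in edgeR (11 unadjusted), and without R135W 7, 1 was called higher (4 unadjusted). In the livers of the same animals 2 of 19 clock genes were called higher and 3 lower, with a median of -0.61. Mt2, Tsc22d3 and Per1 were named after their values were seen.

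Lipid storage genes fell in part. Of 24 lipogenesis and lipid droplet genes 2 passed, Plin4 and Scd1, both lower, with a median of -0.14 and 17 negative. Without WT 8, WT 9 or R135W 7 none passed in edgeR (7, 8 and 7 unadjusted), without each of the other 3 libraries 1 passed, and in the fit of all 12 libraries none passed (3 unadjusted). Plin4, a droplet coat protein abundant in muscle (chr17:56100591-56109802), stood at 924, 944 and 895 CPM in WT 6, 8 and 9 and at 427, 469 and 603 CPM in R135W 5, 7 and 12. R135W 12 was the closest to WT and still far below it, and the change was -0.88 (SE 0.11, adjusted p = 0.0184). Scd1, the desaturase that makes monounsaturated fat, fell from 112 ± 24.6 to 68.5 ± 3.76 CPM (SD, n = 3), at -0.72 (SE 0.13, adjusted p = 0.043). Adipocyte markers did not pass in edgeR or limma-voom (0 of 8, 2 unadjusted, 1 in DESeq2); their sums of 222 to 236 CPM across WT and 211 to 245 CPM across R135W libraries overlapped. Of 28 fatty acid uptake and oxidation genes 0 passed in the 3 tools and 6 had an unadjusted p under 0.05, around a median of -0.12 and 23 negative. Without R135W 12, 1 of them was called lower in edgeR (7 unadjusted). The uncoupling protein gene Ucp3 stood at -0.86 (SE 0.26, adjusted p = 0.221) and Echs1, a beta-oxidation hydratase, at -0.23 (SE 0.07, adjusted p = 0.205).

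Among genes of amino acid handling, Slc7a8 and Prodh fell. Slc7a8, the LAT2 carrier of large neutral amino acids (chr14:54722215-54781886), stood at 39.2, 48.2 and 38.4 CPM in WT 6, 8 and 9 and at 18.4, 16.2 and 26.4 CPM in R135W 5, 7 and 12. The genotypes did not overlap, and the change was -1.04 (SE 0.16, adjusted p = 0.0289). Slc43a3 was listed as a relative of the LAT3 carrier and is not itself an established amino acid carrier. It fell from 32.0 ± 2.77 to 22.03 ± 2.58 CPM (SD, n = 3), at -0.54 (SE 0.10). Slc7a8 and Slc43a3 were the 2 of 19 tested members of the transporter list that passed, and the median was -0.07. Without each of WT 6, WT 8, WT 9, R135W 5 and R135W 7 none of the 19 passed in edgeR (5, 6, 5, 5 and 5 unadjusted), and 1 passed without R135W 12. Prodh, the mitochondrial proline dehydrogenase (chr16:18071726-18089190), stood at 17.9, 24.7 and 21.3 CPM in WT and at 10.6, 8.91 and 11.8 CPM in R135W. Its change of -1.03 (SE 0.14, adjusted p = 0.0184) made it the 1 of 16 proline and polyamine genes that passed, with a list median of -0.15 and 12 negative; without WT 8, WT 9 or R135W 7 none passed (4, 4 and 5 unadjusted).

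The largest falls were in Tfcp2l1, Cep85l and Foxo1. Tfcp2l1, a grainyhead-like transcription factor (chr1:118627945-118685168), stood at 16.1, 15.7 and 16.1 CPM in WT 6, 8 and 9 and at 3.70, 3.96 and 6.07 CPM in R135W 5, 7 and 12. WT animals were nearly equal, and the change was -1.80 (SE 0.16, adjusted p = 0.00586). Cep85l, a centrosomal protein gene, stood at 43.4, 63.5 and 78.3 CPM in WT and at 18.2, 21.7 and 14.5 CPM in R135W, at -1.77 (SE 0.21, adjusted p = 0.016). WT animals varied more than R135W animals in Cep85l without meeting them. Other falls taken by their size were Oacyl at -1.16 (SE 0.17), the methyltransferase gene Inmt at -1.06 (SE 0.19, not past the threshold in limma-voom), the secreted factor gene Fibin at -1.05 (SE 0.16), the interleukin 6 receptor gene Il6ra at -0.97 (SE 0.16) and Pck1, the gluconeogenic and glyceroneogenic carboxykinase, at -0.96 (SE 0.14). Pck1 was tight in R135W, at 5.24 to 5.74 CPM, against 9.16 to 12.9 CPM in WT.

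Single members fell in 2 further lists. Pfkfb1, which sets fructose 2,6-bisphosphate and so glycolytic flux, fell from 55.8 ± 1.90 to 41.9 ± 4.02 CPM (SD, n = 3), at -0.41 (SE 0.08, adjusted p = 0.0488), as the 1 of 24 glycolysis and glycogen genes past the test (median 0.04). Dnajb9, a chaperone partner in the endoplasmic reticulum, fell from 42.8 ± 2.29 to 33.3 ± 1.11 CPM, at -0.36 (SE 0.07, adjusted p = 0.0438), the 1 of 20 unfolded protein response genes (median 0.0034). Neither passed in limma-voom. Without each library in turn no unfolded protein response gene passed in edgeR (3 to 5 unadjusted), and Pfkfb1 passed in 0 of these 6 fits. No glycolysis gene was called lower without WT 6, WT 8, WT 9, R135W 5 or R135W 7. Without R135W 12, 1 glycolysis gene other than Pfkfb1 was called lower, and without R135W 7, 1 was called higher.

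Fibre type genes did not pass the test singly. All 14 fast fibre genes were positive with a median of 0.11, and 11 of 13 slow fibre genes negative with a median of -0.25; 0 of either list passed in edgeR or limma-voom, 2 and 7 had an unadjusted p under 0.05, and 1 slow gene passed in DESeq2. Tnnc1, slow troponin C, stood at 97.0, 108 and 108 CPM in WT and at 63.9, 90.9 and 77.4 CPM in R135W, at -0.43 (SE 0.11, adjusted p = 0.16). Its genotypes did not overlap. Mylpf, the fast regulatory light chain, stood at 6993, 6901 and 6137 CPM in WT and at 7252, 8370 and 8321 CPM in R135W, at 0.26 (SE 0.09, adjusted p = 0.298). Collagen and matrix genes had a median of 0.30 with 22 of 25 positive, but 0 passed in the 3 tools and 1 had an unadjusted p under 0.05. Without R135W 5 or without WT 9 that unadjusted count was 15 or 14, with 0 past the adjusted threshold either way.

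**Figure D4:**
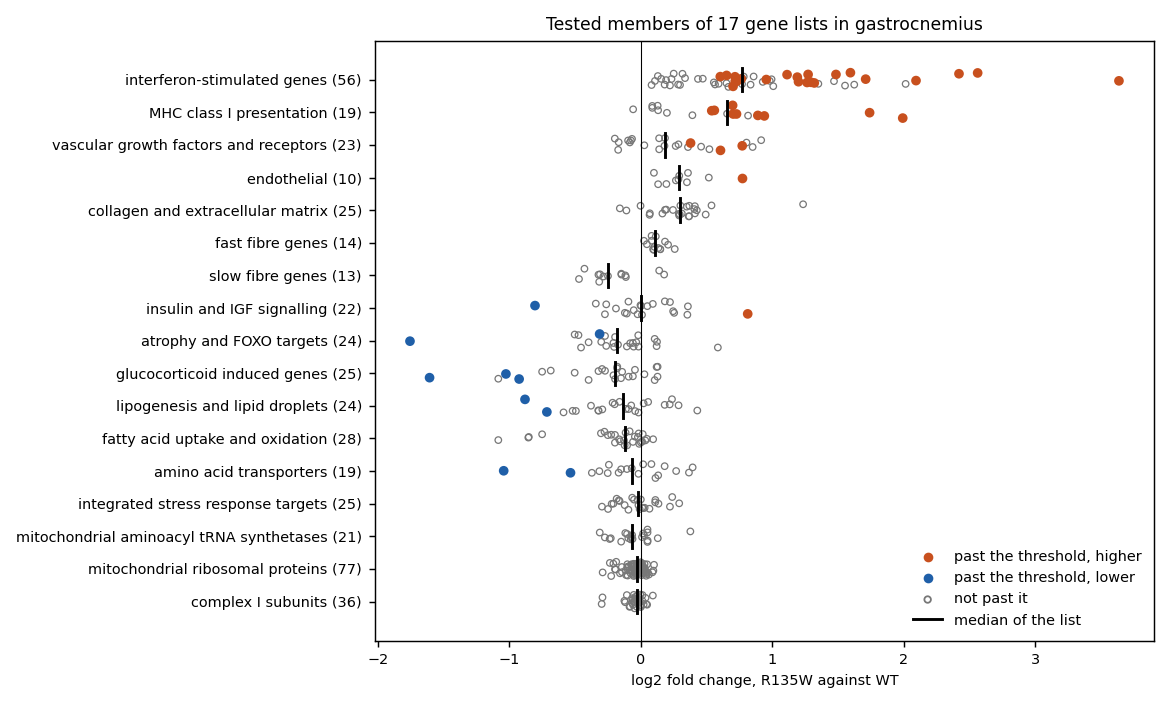
Log2 fold change of R135W against WT for each tested member of 17 gene lists, with the number of tested members in parentheses; filled points passed the threshold, open points did not, and black bars are medians. Interferon-stimulated and MHC class I genes lie to the right with medians of 0.77 and 0.66, and the mitochondrial lists lie close to 0.

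Genes of mitochondrial protein synthesis, where Mars2 acts, and of the respiratory chain showed no called member. Of 21 mitochondrial aminoacyl tRNA synthetase genes 0 passed in edgeR and limma-voom, 1 in DESeq2 and 4 had an unadjusted p under 0.05, around a median of -0.07. Ears2, the glutamyl synthetase, stood at 9.40, 9.48 and 9.43 CPM in WT and at 7.78, 7.65 and 7.96 CPM in R135W, at -0.27 (SE 0.09, adjusted p = 0.268). Lars2, the leucyl synthetase, stood at 0.38 (SE 0.11, adjusted p = 0.188). Its length-scaled count was 342 RPKM in WT, far above the 4.07 RPKM of Mars2. Counts per gene do not show whether all these reads came from Lars2 transcripts, so its change is uncertain too.

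The 77 mitochondrial ribosomal protein genes had a median of -0.03 with 0 past the test in the 3 tools and 7 with an unadjusted p under 0.05; Mrpl50 stood at -0.24 (SE 0.06, adjusted p = 0.15). Nuclear genes of complex I (36), complexes II and III (13), complex IV (14), ATP synthase (16), assembly factors (37), mitochondrial translation and RNA factors (27), chaperones and proteases (15), biogenesis regulators (13) and the tricarboxylic acid cycle (17) had medians between -0.06 and -0.02. In these 9 lists 0 passed in the 3 tools, and 2, 1, 0, 0, 3, 1, 0, 3 and 1 had an unadjusted p under 0.05. Without WT 6, 1 biogenesis regulator was called lower in edgeR. In complex I, Ndufab1 stood at -0.30 (SE 0.11, adjusted p = 0.309). Of 13 mitophagy and dynamics genes Bnip3 alone passed (median -0.08), and in each fit without 1 library it did not.

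Integrated stress response targets held no called gene in the fits of all 6 muscle libraries. Of 25 tested members 0 passed in the 3 tools and 3 had an unadjusted p under 0.05, around a median of -0.02. Without R135W 12, 1 member was called lower in edgeR and 5 had an unadjusted p under 0.05, around a median of -0.05. In the fits without each of the other libraries 0 passed. Atf4, its main factor, stood at 130, 136 and 126 CPM in WT 6, 8 and 9 and at 131, 128 and 131 CPM in R135W 5, 7 and 12, with a change of 0.00 (SE 0.06). Ddit3, the factor CHOP, stood at 0.11 (SE 0.17), Trib3 at -0.07 (SE 0.27) and Asns, asparagine synthetase, at 0.13 (SE 0.28). Gdf15 and Fgf21, the secreted factors of mitochondrial myopathy, were below the count filter in both genotypes. These values of single genes, named after they were seen, carry intervals wide enough that small changes of Asns or Trib3 could not be detected. Vldlr had the smallest p of the list, at -0.25 (SE 0.07, adjusted p = 0.167).

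In the other lists 0 members passed edgeR's or limma-voom's test. The unadjusted counts and medians were 2 of 17 and -0.03 for serine and one-carbon enzymes, 1 of 18 and -0.04 for cytosolic aminoacyl tRNA synthetases, 0 of 13 and -0.04 for heat shock genes, 1 of 15 and -0.06 for NRF2 antioxidant genes and 1 of 15 and -0.08 for p53 targets. They were 5 of 21 and 0.10 for cholesterol synthesis, 4 of 16 and 0.08 for myogenic genes, 4 of 18 and 0.09 for denervation genes, 5 of 22 and 0.03 for calcium handling, 1 of 15 and 0.11 for myokines, 3 of 16 and 0.30 for immediate early genes and 3 of 10 and 0.25 for cell cycle genes. DESeq2 called 2 denervation genes, 1 cell cycle gene and 1 p53 target among them and 0 in the rest. Without R135W 5, edgeR called 1 myokine gene and 1 cell cycle gene higher, and without R135W 7, 1 immediate early gene higher. Immediate early genes varied between animals of a genotype: Nr4a2, an early response receptor, stood at 5.45, 0.554 and 3.70 CPM in R135W 5, 7 and 12 and at 1.10 to 1.14 CPM in WT. Among cell type markers not yet given, fibroblast, satellite cell, tendon, smooth muscle, Schwann cell, erythroid and muscle fibre lists had 0 past the test in the 3 tools, with 2, 2, 1, 4, 0, 0 and 1 unadjusted and overlapping sums. Hepatocyte markers summed to 11.0 to 18.02 CPM in WT and 10.5, 10.6 and 43.4 CPM in R135W, the last in R135W 12, with 0 of 4 tested past the test in the 3 tools and 1 unadjusted.

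The liver of the same animals served to show where muscle differs. In liver 457 of 13935 genes passed the same test (3.28%). Among 12413 genes tested in both tissues, 111 were called in muscle and 356 in liver, and 37 were called in both, which is 33.3% of the muscle calls and 10.4% of the liver calls. Of these 37, 36 moved in the same direction and Slc7a8 alone moved in the opposite one. Both comparisons use the same 6 animals, so they are not independent.

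The overlap lay in the genes that rose. Of 68 genes called higher in muscle and tested in liver, 34 were called in liver, all higher, with a liver median of 0.90. These 34, like the 37 genes called in both, include H2-Q6 with H2-Q8, H2-Q7 with H2-Q9 and H2-T22 with H2-T9. The counts of each such pair are identical in muscle, so its members are not separate measurements. The same pairs are counted in the 75 genes called higher. Of 43 genes called lower in muscle, 3 were called in liver, Bnip3 and Sec24a lower and Slc7a8 higher, and the liver median was -0.12. Irf7 rose by 2.51 (SE 0.19) in liver, with an interaction of 0.06 (SE 0.34), and Ifit3 by 2.32. Foxo1 stood in liver at 0.04 (adjusted p = 0.953), Cep85l at 0.03 (adjusted p = 0.977), Plin4 at -0.05 (adjusted p = 0.975), Prodh at -0.08 (adjusted p = 0.923) and Fkbp5 at -0.95 (adjusted p = 0.181). Of the 56 interferon-stimulated genes tested in muscle and 58 in liver, 22 and 42 were called higher, with medians of 0.77 and 1.18.

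A difference between tissues was shown for few genes. The interaction of genotype and tissue, tested with edgeR over all 12 libraries, passed for 20 of 15414 genes (0.13%), 5 of them with the more positive effect in muscle. Leaving out any 1 of the 6 animals gave 1 to 7 called genes, of which 1 to 6 were among those 20. With the animal as a block, which pairs the liver and muscle of each animal, 16 genes passed and 10 of the 20 were among them. Of the 121 muscle calls 4 passed it: Tfcp2l1 and Slc7a8, more negative in muscle, Ifi27l2a, which rose less in muscle (0.72 against 1.70 in liver), and Dusp10, a phosphatase of p38 and JNK. With the block Tfcp2l1 and Slc7a8 passed (adjusted p = 0.01098 for both), and Ifi27l2a (adjusted p = 0.0608) and Dusp10 (adjusted p = 0.0646) did not. Dusp10 stood at 12.3 to 17.98 CPM in WT muscle and at 30.2, 32.9 and 29.7 CPM in R135W muscle, at 1.01 (SE 0.12, adjusted p = 0.0184), beside -0.31 (adjusted p = 0.407) in liver. The interaction of Foxo1 was -1.79 (SE 0.35, adjusted p = 0.0886) and did not pass, so its fall is not shown to differ from liver.

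**Figure D5:**
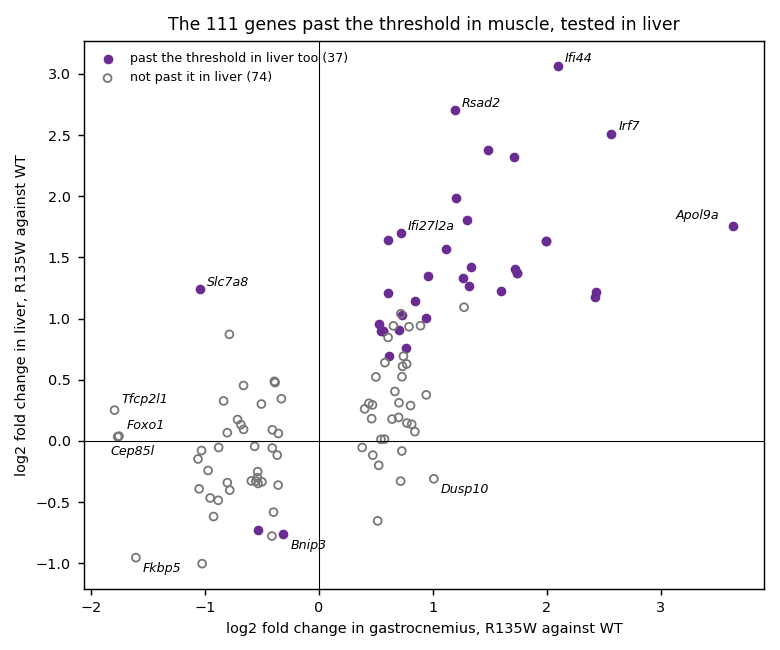
Log2 fold change in liver by that in gastrocnemius for the 111 genes past the threshold in muscle that were tested in liver; filled points (37) passed in liver too and open points (74) did not. Genes higher in muscle are mostly higher in liver, while Foxo1, Cep85l and Tfcp2l1 lie near 0 in liver and Slc7a8 has opposite signs.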

How the data were processed

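Poly(A) RNA of 12 libraries was sequenced as paired-end reads; the 6 gastrocnemius libraries carry the comparison and the 6 livers the difference between tissues. The deposited values are raw counts per gene symbol: per the file headers the authors counted read pairs over exons given by UCSC for mm10, using featureCounts 1.5.2, primary alignments only, no strand option, each fragment counted for every gene it overlaps. The aligner was STAR 2.4.0, per the submitters' processing notes. Overlapping and antisense genes therefore share counts. The genes that mitochondrial DNA encodes were not analysed here.

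Counts were fitted with edgeR 4.0.16 in R 4.3.3 (TMM scaling, filterByExpr with the groups, the quasi-likelihood F test, and p-values adjusted by Benjamini-Hochberg across every tested gene, with 0.05 as threshold). SE is the absolute log2 fold change over the square root of F. RPKM divides CPM by the exon length in the files. The tissue difference was the interaction in 4 groups of 3. Alternatives were DESeq2 1.42.0, limma-voom (limma 3.58.1), RLE factors, filters, age, all 12 libraries, the animal as a block, and leaving out each library. The fit was tested on simulated data. The labels do not say whether litters or batches were shared.

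Liver and muscle of the same number come from the same animal, per the labels, so the numbers pair the samples; deviations from the group means correlated at 0.00337 to 0.069 within animals. Members and lists (43 of pathways, 15 of cell types) were chosen with earlier results of these data known. Named genes were Mars2, up to 12 called genes each way by size of change (libraries not overlapping, a mean of 1 CPM or more in either genotype, no provisional name), up to 4 called members of each list (or up to 2 of the smallest p where none was called) and 10 for the tissue difference; any other gene named was chosen after its values were seen. With 3 animals a group, p-values measure the spread between these animals only.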

Additional observations from a re-analysis of the deposited data

Results flagged for a closer look

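The effect of R135W differed between muscle and liver by edgeR's interaction test, with muscle minus liver as the sign, for 12 named genes. Among genes called in muscle, the interaction was -2.04 for Tfcp2l1, -2.28 for Slc7a8, -0.98 for Ifi27l2a and 1.32 for Dusp10, which rose in muscle (1.01) and stood at -0.31 in liver. Slc7a8 fell in muscle (-1.04) and rose in liver (1.24). Interferon-related genes that rose in liver and were not called in muscle were Ifi27 at -1.80 and Ifi205 at -2.16; Ifi27 stood at 18.2 to 19.5 CPM in WT muscle and 19.96 to 20.6 CPM in R135W muscle, and Ifi205 was lower in all 3 R135W muscles (-0.76, adjusted p = 0.11). Ifi27 and Ifi27l2a share 9.78% and 11.7% of their exon lengths, so part of their counts is common to both.

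The other interactions were -1.15 for Sirpa, an inhibitory receptor of myeloid cells, -1.19 for Axl, a receptor kinase for dying cells, -1.13 for Sema4d, -1.13 for Hmox1, the heme oxygenase gene, and -1.22 for Syk, a kinase of immune receptors. All 5 were called higher in liver, and none was called in muscle, at log2 fold changes of -0.23 to 0.05. Their muscle libraries overlapped between genotypes except for Syk, which was lower in each R135W library. Phlda3, a p53 target, had an interaction of -1.46 and was called in neither tissue alone (-0.46 in muscle, 0.996 in liver). Macrophage markers, 0 of 12 past the test in muscle, had 7 of 13 called higher in liver; their part in these differences was not tested. Without single animals 1 to 7 genes passed the interaction test. With the animal as a block Ifi27l2a, Dusp10, Syk and Phlda3 did not pass (adjusted p = 0.0608, 0.0646, 0.0845 and 0.0620), and the other 8 did.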

How the results depend on the processing

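With 3 animals a group, calls near the threshold moved with single libraries. Leaving out 1 library gave 3 to 106 called genes in muscle, 1 to 86 higher and 2 to 31 lower, and each fit then held 2 animals in one group. DESeq2 called 274 genes (168 higher, 106 lower), and the fit of all 12 libraries, whose spread includes liver, called 20 (15 higher, 5 lower). Between 96 and 172 were called with limma-voom, RLE factors, age as a covariate, no filter or a stricter filter. All 121 kept their direction wherever they were tested; 121 were still called in DESeq2, 96 in limma-voom and 118 with age. For the tissue difference, 20 genes were called with RLE factors or a stricter filter, and leaving out an animal gave 1 to 7. With the animal as a replicate block 16 genes passed, 10 of them among the 20. No block was possible within muscle, since the genotypes share no animal. Median fold changes over all genes stayed within 0.02 of 0 in the muscle fits. Immune markers below the count filter were not tested.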

Other observations

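Of the 121 called genes 48 belong to a list above, 35 higher and 13 lower, and the other 73 to none. The genes named here were chosen from those 73 after their values were seen. Unc5b, a netrin receptor of endothelium and neurons, stood at 4.03, 4.72 and 5.13 CPM in WT 6, 8 and 9 and at 7.78, 10.8 and 8.04 CPM in R135W 5, 7 and 12, at 0.94 (SE 0.16). The sphingosine phosphate receptor gene S1pr3 stood at 3.99, 3.98 and 3.95 CPM in WT and at 6.20, 6.98 and 6.52 CPM in R135W, at 0.73 (SE 0.11). Mkl1, a coactivator of serum response factor, rose by 0.80 (SE 0.13), the actin regulator gene Vasp by 0.62 (SE 0.11), the laminin receptor gene Itga6 by 0.50 (SE 0.08), the membrane protease gene Mmp14 by 0.67 (SE 0.11) and Rgma by 0.51 (SE 0.07). Ankrd23, a stretch-responsive titin partner, rose from 2117, 2305 and 2403 CPM to 3298, 3047 and 2892 CPM, at 0.44 (SE 0.08). Endothelial marker sums were also higher in the same libraries, and their part in these rises was not tested.

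The ERK phosphatase gene Dusp7 stood at 41.1, 46.9 and 47.2 CPM in WT and at 27.0, 31.4 and 25.6 CPM in R135W, at -0.69 (SE 0.09), opposite in sign to Dusp10. The corepressor gene Hr stood at 163, 163 and 194 CPM in WT and at 84.2, 106 and 111 CPM in R135W, at -0.79 (SE 0.11). Usp54 fell by 0.81 (SE 0.11), the nocturnin gene Ccrn4l by 0.78 (SE 0.14) and the phosphodiesterase gene Pde7a by 0.55 (SE 0.09). Kcns1, a modulatory potassium channel subunit, rose by 2.67 (SE 0.45), from 0.038 to 0.142 CPM in WT to 0.50 to 0.667 CPM in R135W, levels of few counts.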
